A study of Danio rerio with 4 samples.

Results

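Hox genes were read in the brain of zebrafish embryos at 36 h, in wild type and in foggy mutants, on the Affymetrix zebrafish genome array. The members are all probe sets whose single gene symbol in the platform annotation is a Hox gene of cluster family a, b, c or d followed by a paralogue number. This rule gave 59 probe sets for 42 Hox genes, of 15502 non-control probe sets for 8793 named genes. Brain RNA of wild-type embryos was hybridised to 1 array and that of foggy mutants to 3. The wild-type label gives 36 h and the mutant labels give 36 without a unit, read here as hours. The foggy locus encodes Spt5 (supt5h), which acts in pausing and elongation of RNA polymerase II. The labels do not name the allele, the strain, how mutants were recognised, how many embryos were pooled, or where the brain was separated from the trunk.

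Hox genes encode homeodomain transcription factors that give cells their position along the head-to-tail axis. They lie in clusters, and the order of paralogue numbers in a cluster follows the order of expression along the body: low numbers are expressed from the hindbrain backwards and high numbers in trunk and tail. The forebrain and midbrain normally express none. Retinoic acid, made in the trunk and posterior head mesoderm, switches on the low and middle paralogues, and Hox proteins bind DNA together with Pbx and Meis cofactors.

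In the wild-type brain 10 of the 59 Hox probe sets lay above the median of the array, all of paralogues 2 to 5, and those of paralogue 1 and of paralogue 6 on lay under it. In the mutant arrays 2 of 4 genes of paralogue 5 and 1 of 4 of paralogue 4 were lower, while those of paralogues 2 and 3 did not pass the test in either direction. Of 16 Hox probe sets bright enough to test, 3 were lower in the mutant (18.8%), 0 were higher and 13 did not pass. Among all 10851 probe sets tested 5.5% passed, 3.14% lower and 2.36% higher in the mutant. By paralogue group, 1 of 12 tested was lower for paralogues 1 to 4 (8.33%) and 2 of 4 for paralogues 5 to 8. The 3 lower genes were hoxb5a, hoxb5b and hoxc4a. At an unadjusted limma p under 0.05, 6 Hox probe sets were lower and 1, a probe set of hoxa3a, was higher, against 8.89% and 11.7% of all probe sets tested. All 3 calls rest on a single wild-type array, whose spread was set equal to that of the mutant arrays. When the wild-type SD was doubled, 0 of the 3 passed (adjusted p from 0.302 to 0.900). After the pseudocount described below was added, 0 of the 16 tested Hox probe sets were at least 2-fold lower or higher in all 3 mutant arrays. The shares over all probe sets tested were 0.571% and 0.0184%. Dim Hox probe sets were not held to this rule. Markers of skeletal muscle (6 of 7), red cells (5 of 5) and cartilage (3 of 3 tested) were lower in the same arrays, and their part in the Hox differences was not tested. The 3 lower Hox genes, of paralogues 4 and 5, are normally expressed near the passage from hindbrain to spinal cord. Where the brain was cut from the trunk is not in the labels. With 1 wild-type array, a difference in that cut cannot be told apart from one of genotype.

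Values are deposited intensities on a linear scale, and log2 differences are mutant mean minus wild type after adding a pseudocount of 16.3, which understates the change of faint probe sets. P-values are from limma, two-sided and Benjamini-Hochberg adjusted over all probe sets tested, with 0.05 as the threshold. A probe set is called dim, and was not tested, if its mean log2 value fell in the lowest 30% of the array's probe sets. Probe sets differ in how strongly they bind their target, so levels are set against the median of the array. Where a probe set is called the brighter or brightest, this says only which one was chosen or how its signal read, not which transcript was more abundant.

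Of the 59 Hox probe sets, 10 lay above the array median in wild-type brain, against 8, 8 and 7 on the mutant arrays. In all 4 arrays 7 lay above it, 1 each of hoxa2b, hoxb2a, hoxa3a, hoxb3a, hoxc4a, hoxd4a and hoxb5a, and 48 lay above it in none. Among all non-control probe sets 46.2% lay above the median in all 4 arrays. By paralogue number, 8 of 17 probe sets of paralogues 1 to 4 were above the median in the wild type, 2 of 18 of paralogues 5 to 8, and 0 of 24 of paralogues 9 to 13. The median Hox probe set stood at percentile 41.0 of the wild-type array for paralogues 1 to 4, at 23.8 for 5 to 8 and at 10.4 for 9 to 13. In the 3 mutant arrays these medians were 43.9, 45.9 and 43.7 for paralogues 1 to 4. They were 15.4, 17.5 and 19.4 for paralogues 5 to 8, all under the wild-type value. For paralogues 9 to 13 they were 9.46, 7.97 and 7.42, also all under the wild-type value.

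**Figure D1:**
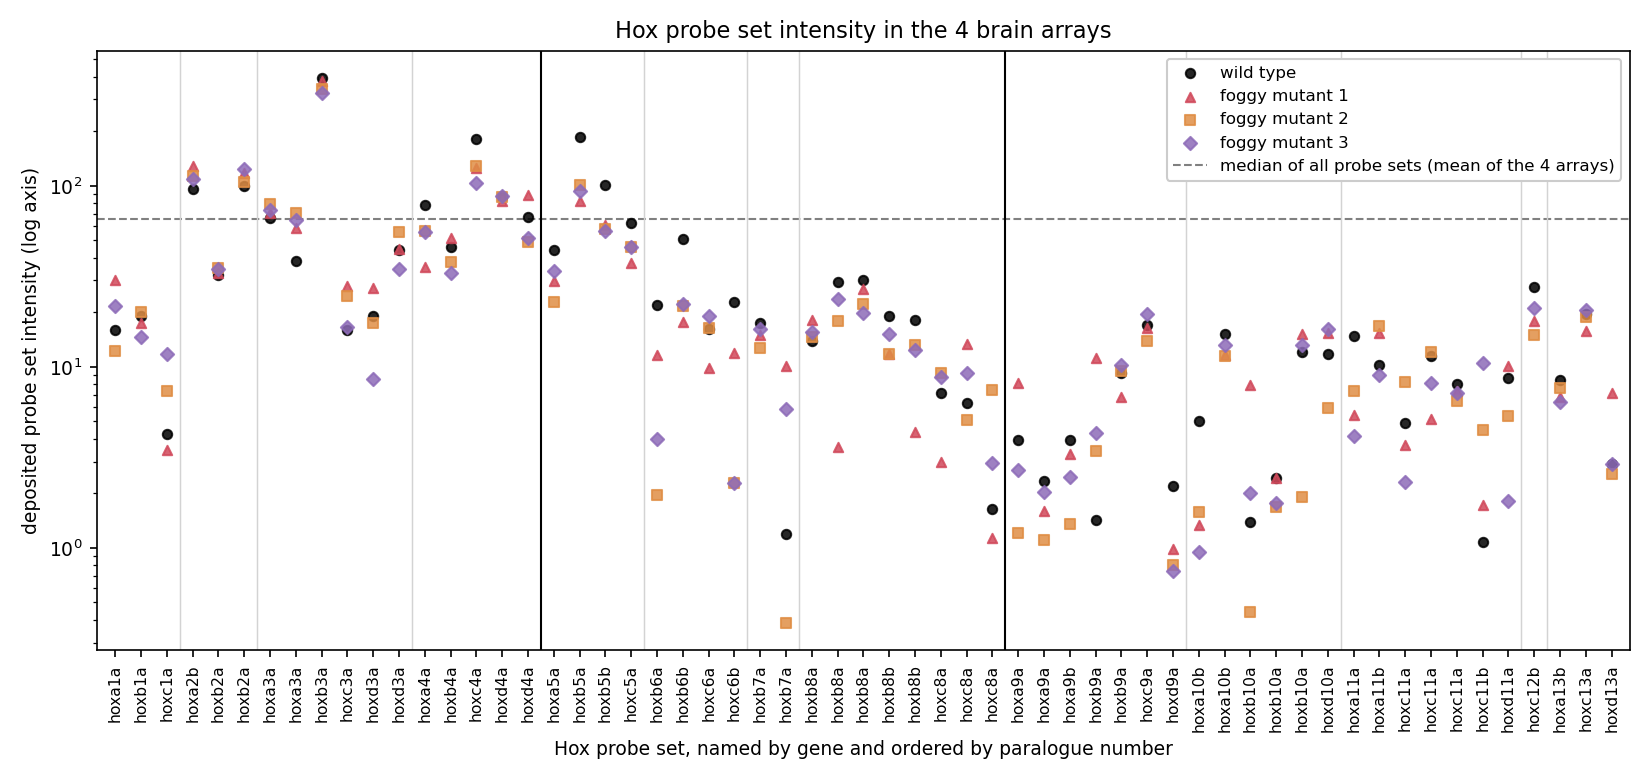
Intensity (log axis) of each of the 59 Hox probe sets in the wild-type array (black circles) and the 3 foggy mutant arrays (coloured symbols), ordered by paralogue number; thick vertical lines separate paralogues 1 to 4, 5 to 8 and 9 to 13, and the dashed line is the median of all non-control probe sets. Signal above the dashed line is found at paralogues 2 to 5, and the black circles of hoxb5a and hoxb5b stand clear above their mutant symbols.

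Paralogue 1 genes, which set up the identity of the early hindbrain segments, were dim by their mean over the arrays. The hoxb1a probe set, for the gene that marks the fourth rhombomere, read 19.1 in wild-type brain against 17.6, 20.2 and 14.6 in foggy brain. The brightest of the paralogue by mean log2 value, hoxa1a, had a wild-type intensity of 15.9 and mutant intensities of 30.2, 12.2 and 21.8. For both genes the wild-type value lay inside the mutant range, and neither was tested, although hoxa1a passed the 30th percentile on mutant array 1 alone.

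Paralogue 2 genes pattern the anterior hindbrain and, in the case of hoxa2b, the neural crest of the second pharyngeal arch. The hoxa2b probe set gave 95.7 on the wild-type array against 129, 114 and 109 on the mutant arrays. All 3 mutant arrays lay above the wild type, but the shift of +0.25 (log2, SE 0.129) missed the threshold (adjusted p = 0.310). The brighter probe set of hoxb2a read 99.6 in wild-type brain against 118, 105 and 124 in foggy brain. Its mutant values were also all higher, by +0.18 on the log2 scale (SE 0.130), which did not pass (adjusted p = 0.471). The wild type lay below all 3 mutant arrays at 36.2% of all probe sets tested. The fainter hoxb2a probe set read 32.1 in wild-type brain, with the mutants between 33.2 and 35.3.

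Paralogue 3 genes are expressed from the fifth and sixth rhombomeres backwards. The hoxb3a probe set had a wild-type intensity of 394 and mutant intensities of 378, 343 and 324. The wild type was above all mutants, by a small margin that did not pass (log2 difference -0.17, SE 0.0931, adjusted p = 0.335). It passed without mutant array 1 (adjusted p = 0.0167), in a fit that called 878 probe sets lower and 1186 higher in all. Both probe sets of hoxa3a leaned the other way. The fainter gave 38.2 on the wild-type array against 58.4, 70.4 and 64.8 on the mutant arrays, which missed the threshold (log2 difference +0.57, SE 0.156, adjusted p = 0.0678). It passed without mutant array 1 (adjusted p = 0.00666). The brighter hoxa3a probe set read 66.7 in wild-type brain against 71.1, 79.4 and 73.1 in foggy brain, a log2 difference of +0.13 (adjusted p = 0.668). The hoxd3a probe set that could be tested read 44.3 in wild-type brain, inside the mutant range of 34.9 to 55.6. The hoxc3a probe set was dim.

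Paralogue 4 genes mark the posterior hindbrain and the passage into the spinal cord, and 1 of the 4 on the array was lower. The hoxc4a probe set had a wild-type intensity of 181 and mutant intensities of 125, 128 and 104. It was 1.46-fold lower in the mutant (log2 difference -0.54, SE 0.132, adjusted p = 0.0417). The wild-type array lay above all 3 mutant arrays, an order found at 28.4% of all probe sets tested. Leaving out mutant arrays one at a time kept the call (adjusted p from 5.48e-04 to 0.0466). With dim probe sets included it was lost (adjusted p = 0.0858), as it was with no variance trend in the model (0.142). The hoxa4a probe set gave 77.9 on the wild-type array against 35.5, 56.2 and 55.5 on the mutant arrays. Its log2 difference was as large (-0.54), but the mutant arrays were spread more widely (SE 0.205) and it did not pass (adjusted p = 0.164). The hoxb4a probe set read 45.7 in wild-type brain against 51.4, 37.8 and 32.8 in foggy brain, with the wild type inside the mutant range. The brighter hoxd4a probe set had a wild-type intensity of 86.6 and mutant intensities of 82.4, 87.0 and 88.3 (log2 difference -0.01, SE 0.130, adjusted p = 0.976). The other hoxd4a probe set spanned 49.1 to 88.8 in the mutants around a wild-type value of 67.6. All 5 probe sets of paralogue 4, for 4 genes, lay below 0, from -0.54 to -0.01. Both hoxd4a values crossed 0 when a mutant array was left out. Of all 10851 probe sets tested, 4927 lay below 0.

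Paralogue 5 genes are expressed in the most posterior hindbrain, the anterior spinal cord and the mesoderm beside them. All 4 of them on the array could be tested, and in all 4 the wild-type array lay above every mutant array. The wild-type array lay above all 3 mutants at 28.4% of all probe sets tested. The hoxb5a probe set had the largest difference among the Hox probe sets tested. It gave 186 on the wild-type array against 82.1, 101 and 93.8 on the mutant arrays, 1.87-fold lower (log2 difference -0.90, SE 0.134, adjusted p = 0.00418). In the wild type hoxb5a stood at percentile 76.3 of the array, and in the mutants at 56.0, 61.3 and 59.2. This gene passed in each fit that left out a mutant array (adjusted p from 3.23e-06 to 3.65e-04), with dim probe sets included (0.0147) and with no variance trend (0.0394). Its duplicate hoxb5b, on the second b cluster, read 101 in wild-type brain against 61.0, 57.5 and 56.6 in foggy brain. It was 1.57-fold lower (log2 difference -0.65, SE 0.141, adjusted p = 0.0263). It passed in each fit that left out a mutant array (adjusted p from 0.00146 to 0.0393) and missed the threshold with dim probe sets included (0.0608). The hoxa5a probe set had a wild-type intensity of 44.4 and mutant intensities of 29.7, 22.8 and 33.6 (log2 difference -0.44, SE 0.189, adjusted p = 0.225). The hoxc5a probe set gave 62.0 on the wild-type array against 37.6, 45.9 and 46.2 on the mutant arrays (log2 difference -0.40, SE 0.165, adjusted p = 0.203). Neither of these passed.

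Paralogue 6 genes are normally found in the spinal cord and trunk, and all 4 of their probe sets were dim and left out of the test. The brightest, hoxb6b, read 51.0 in wild-type brain against 17.7, 21.6 and 22.3 in foggy brain, a log2 difference of -0.87. The 3 mutant values lay close together and under the wild type. The mean log2 value of hoxb6b, 5.42, fell just below the filter, at percentile 29.3 of all probe sets, whereas that of hoxa5a, 5.59, lay just above it. With no filter hoxb6b came to an adjusted p of 0.0557. When 1 mutant array was left out, the filter was recomputed on the remaining arrays, hoxb6b entered the test and came under the threshold in all 3 such fits (adjusted p from 0.00319 to 0.0117). It entered them only through its wild-type value, which weighs more there, since the mutant values alone lie under the filter, so these fits are no support for a difference. The hoxb6a probe set had a wild-type intensity of 21.9 and mutant intensities of 11.6, 1.96 and 3.98. That of hoxc6b gave 22.9 on the wild-type array against 11.9, 2.29 and 2.29 on the mutant arrays. Without a filter neither hoxb6a (log2 difference -0.81, adjusted p = 0.158) nor hoxc6b (-0.88, adjusted p = 0.147) passed. The hoxc6a probe set read 16.1 in the wild type and lay inside the mutant range of 9.82 to 19.1.

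Paralogues 7 to 13, which pattern trunk, tail and paired fins, gave almost no signal. None of the 24 probe sets of paralogues 9 to 13 passed the filter, and the highest of their values in any array was 27.8, that of hoxc12b in the wild type, where the mutants read 18.02, 15.0 and 21.0. At this signal level a difference between the groups could not be told for them. Of the 10 probe sets of paralogues 7 and 8, the brightest were for hoxb8a, at 30.1 in wild-type brain against 26.9, 22.1 and 19.96 in foggy brain. For hoxb7a the brighter probe set read 17.4 in wild-type brain against 15.0, 12.8 and 16.2 in foggy brain. The hoxb8b probe sets read 19.2 and 18.1 in wild-type brain, with all mutant values between 4.38 and 15.1. The brightest probe sets of paralogues 9, 10, 11 and 13 were those of hoxc9a, hoxa10b, hoxa11b and hoxc13a. The hoxc9a probe set gave 17.1 on the wild-type array against 16.3, 13.8 and 19.5 on the mutant arrays. That of hoxa10b gave 15.1 against 11.6, 11.5 and 13.2. Mutant values lay on either side of the wild type for hoxc9a and below it for hoxa10b. The hoxa11b probe set gave 10.2 on the wild-type array against 15.3, 16.9 and 9.004 on the mutant arrays, and that of hoxc13a gave 19.5 against 15.7, 18.8 and 20.6, both with the wild type inside the mutant range.

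**Figure D2:**
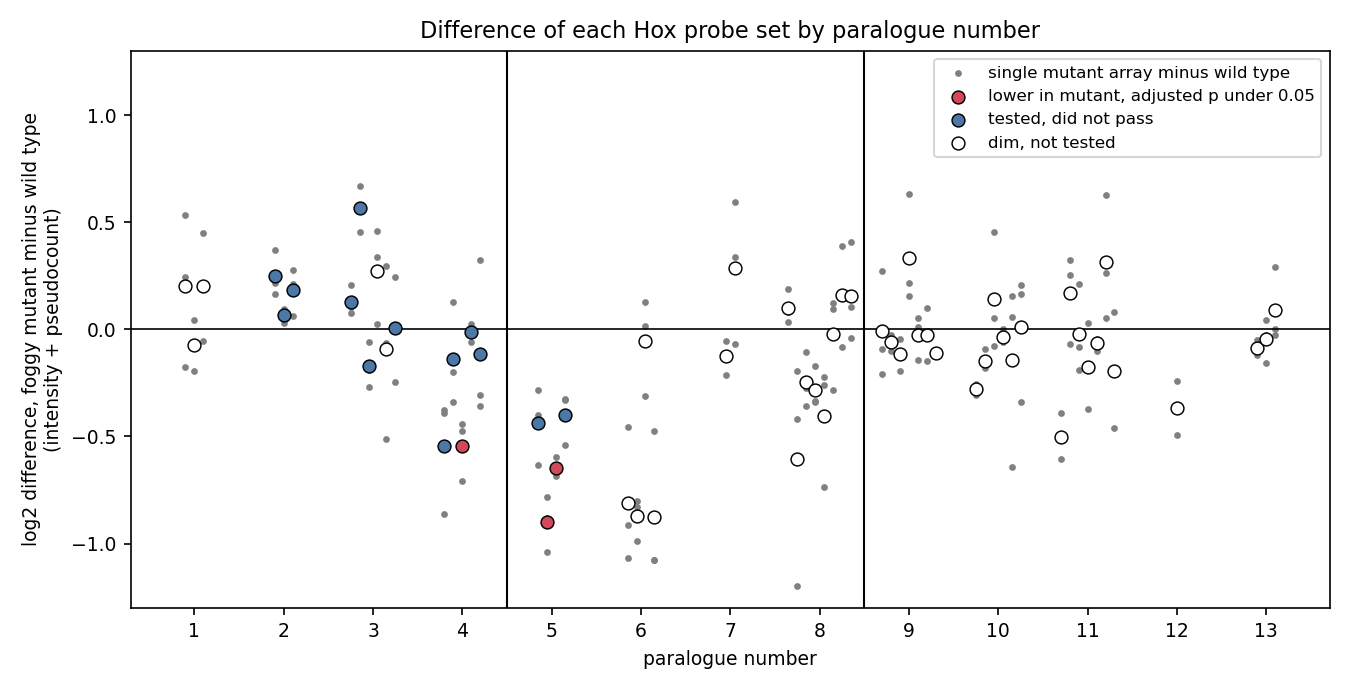
Log2 difference of each Hox probe set, foggy mutant mean minus wild type (large circles, filled by test outcome) with the 3 single mutant arrays (grey dots), against paralogue number; vertical lines separate the 3 paralogue groups. The circles sit near or above 0 at paralogues 2 and 3, and all of those at paralogues 4, 5 and 6 lie below it, down to -0.90 for hoxb5a. Of all 15502 non-control probe sets, 7242 lie below 0.

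Taken by paralogue group, the median log2 difference was 0.00 for paralogues 1 to 4 (17 probe sets), -0.34 for 5 to 8 (18) and -0.05 for 9 to 13 (24), beside +0.02 for all non-control probe sets. In the single mutant arrays the median for paralogues 5 to 8 was -0.37, -0.30 and -0.23, and that for paralogues 1 to 4 was +0.07, +0.04 and +0.02. The wild-type array lay above all 3 mutants at 12 of 18 probe sets of paralogues 5 to 8, at 3 of 17 of paralogues 1 to 4 and at 9 of 24 of paralogues 9 to 13. Over all non-control probe sets this share was 27.6%. The wild type lay below all 3 mutants at 6 of 17, 1 of 18 and 2 of 24 probe sets of paralogues 1 to 4, 5 to 8 and 9 to 13, against 32.8% overall. By single number the medians were +0.20 for paralogue 1, +0.18 for 2, +0.07 for 3, -0.14 for 4, -0.54 for 5, -0.84 for 6, +0.08 for 7 and -0.13 for 8. From paralogue 9 to 13 they were -0.03, -0.09, -0.07, -0.37 and -0.05. Those of paralogue 1 and of paralogue 6 on rest on dim probe sets alone. Within the group of paralogues 5 to 8, the lowest medians were those of numbers 5 and 6, and that of number 8 was also below 0. Paralogue 7 is 1 gene, hoxb7a, whose 2 dim probe sets differed by -0.13 (the brighter) and +0.29. The difference between the paralogue groups itself was not tested. Over the 59 Hox probe sets, the SD of the log2 difference was 0.40, 0.34 and 0.35 between the wild type and mutant arrays 1, 2 and 3. Between mutant arrays it was 0.34 (1 and 2), 0.33 (1 and 3) and 0.23 (2 and 3). Mutant array 1 thus lay about as far from the other mutant arrays as the wild type did. Of 4 arrays with 1 wild type, a permutation cannot give a p below 0.25.

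By cluster the lower genes were spread. The array carries genes of 7 Hox clusters, and the 3 calls lay in 3 of them, hoxba (hoxb5a), hoxbb (hoxb5b) and hoxca (hoxc4a). Within the hoxba cluster, hoxb2a and hoxb3a differed by +0.18 and -0.17 and hoxb4a by -0.14, while hoxb5a differed by -0.90. Within the hoxaa cluster the values were +0.13 for hoxa3a, -0.54 for hoxa4a and -0.44 for hoxa5a, none past the threshold. The hoxda cluster as annotated has no gene of paralogue 5 or 6. Its tested genes, hoxd3a and hoxd4a, differed by 0.00 and -0.01 at their brightest probe set.

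**Figure D3:**
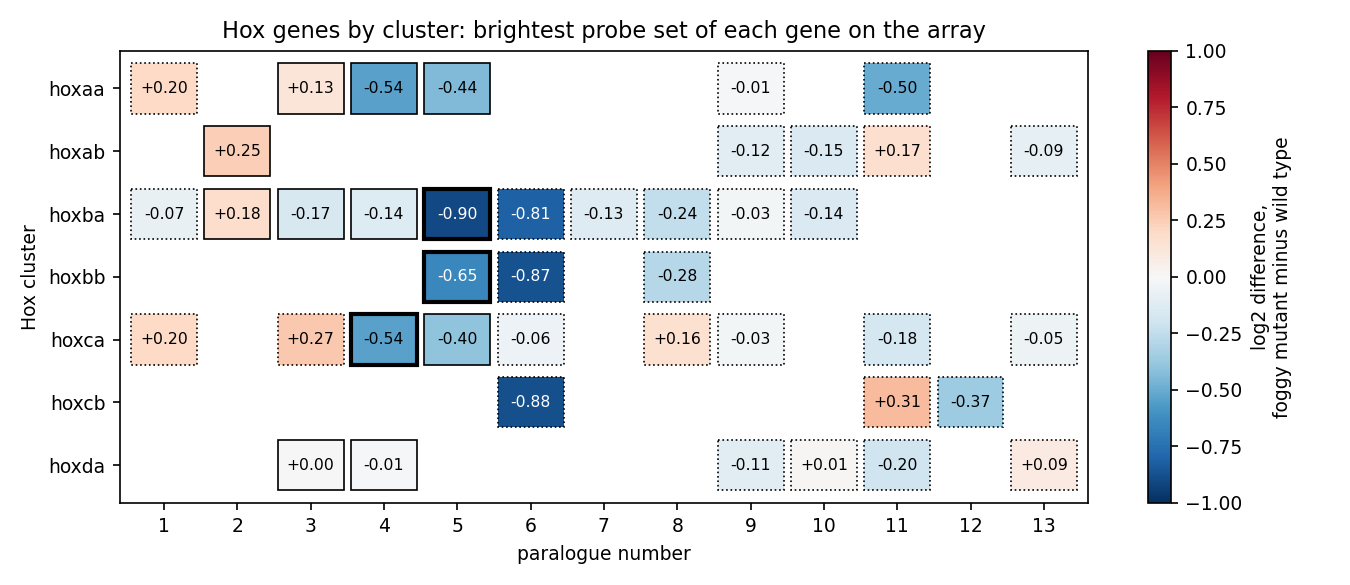
Hox genes on the array by cluster (rows) and paralogue number (columns), coloured and labelled by the log2 difference of the brightest probe set, foggy mutant minus wild type. Thick borders mark genes past the threshold and dotted borders dim genes that were not tested. A cell is blank where the cluster has no gene of that number or the gene has no named probe set. The deepest blue cells lie in the columns of paralogues 4 to 6 of the a, b and c clusters, though hoxc6a is at -0.06. Cells outside these columns are also blue, such as the dim hoxa11a (-0.50) and hoxc12b (-0.37).

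Some Hox genes were read by more than 1 probe set. Of the 13 such genes, 6 had probe sets on both sides of 0, and in each of these at most 1 probe set was bright enough to test. The 3 genes called lower have 1 probe set each. For 8 source sequences the array holds probe sets of both orientations, marked A and S in their identifiers, and the S probe set read higher in all 4 arrays for 3 of them (hoxd3a, hoxa10b and hoxb10a). It read higher in 3 arrays for hoxb8a, in 1 for hoxb8b, hoxc11a and hoxc8a, and in 0 for hoxb7a. Of these 8 pairs, only hoxd3a had a probe set that was not dim.

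The Pbx, Meis and Prep cofactors, with which Hox proteins bind DNA, moved both ways. Of 12 tested, 2 were lower, 1 was higher and 9 did not pass, with a median log2 difference of -0.07. Over all probe sets tested, 3.14% were lower and 2.36% higher. The gene meis3, a Hox partner in the posterior hindbrain, had a wild-type intensity of 250 and mutant intensities of 156, 144 and 146. It was 1.62-fold lower (log2 difference -0.69, SE 0.102, adjusted p = 0.00376), and the mutant arrays were close together. It passed in each fit that left out a mutant array, but not with the wild-type SD doubled (adjusted p = 0.282). The gene meis1b gave 1070 on the wild-type array against 841, 826 and 864 on the mutant arrays, 1.26-fold lower (adjusted p = 0.0148). The gene pbx4, whose product is the main early Pbx of the zebrafish hindbrain, read 511 in wild-type brain against 609, 664 and 649 in foggy brain, 1.25-fold higher (adjusted p = 0.0349). The pbx4 call was lost without mutant array 2 (adjusted p = 0.0756) or 3 (0.0643) and, like that of meis1b, without the variance trend (0.199 and 0.167). Neither held with the wild-type SD doubled (0.846 and 0.612).

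In a broad list for retinoic acid synthesis, breakdown and reception, 2 of 21 genes tested were lower and 0 were higher. The other 19 did not pass, and the median log2 difference was -0.08. The 21 include the orphan receptor genes nr2f1a, nr2f1b, nr2f2, nr2f5 and nr2f6b and the receptor-interacting gene nrip1b. These do not belong to the pathway itself, and none of them passed. At an unadjusted limma p under 0.05, 3 of the 21 were lower and 1, nrip1b, was higher. Over all probe sets tested, 3.14% were lower and 2.36% higher, and 8.89% and 11.7% at that unadjusted p. The gene aldh1a2, for the enzyme that makes retinoic acid in the early embryo, had a wild-type intensity of 199 and mutant intensities of 109, 119 and 113. It was 1.66-fold lower (log2 difference -0.73, SE 0.113, adjusted p = 0.00493) and passed in each fit that left out a mutant array, but not with the wild-type SD doubled (adjusted p = 0.330). The gene cyp26b1, for an enzyme that breaks retinoic acid down, was lower at 2 of its 4 probe sets. The brightest gave 341 on the wild-type array against 204, 254 and 246 on the mutant arrays, 1.43-fold lower (adjusted p = 0.0322). Another read 123 in wild-type brain against 59.8, 51.0 and 47.8 in foggy brain (log2 difference -1.01, SE 0.154, adjusted p = 0.00475). The other two cyp26b1 probe sets also lay below 0, at -0.27 and -0.40, and did not pass. The call at the brightest was lost with dim probe sets included (adjusted p = 0.0774), without the variance trend (0.167) and with the wild-type SD doubled (0.820). The receptor gene rarga, which lies beside the hoxca cluster, read 204 in wild-type brain, with the mutants at 199 to 209.

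**Figure D4:**
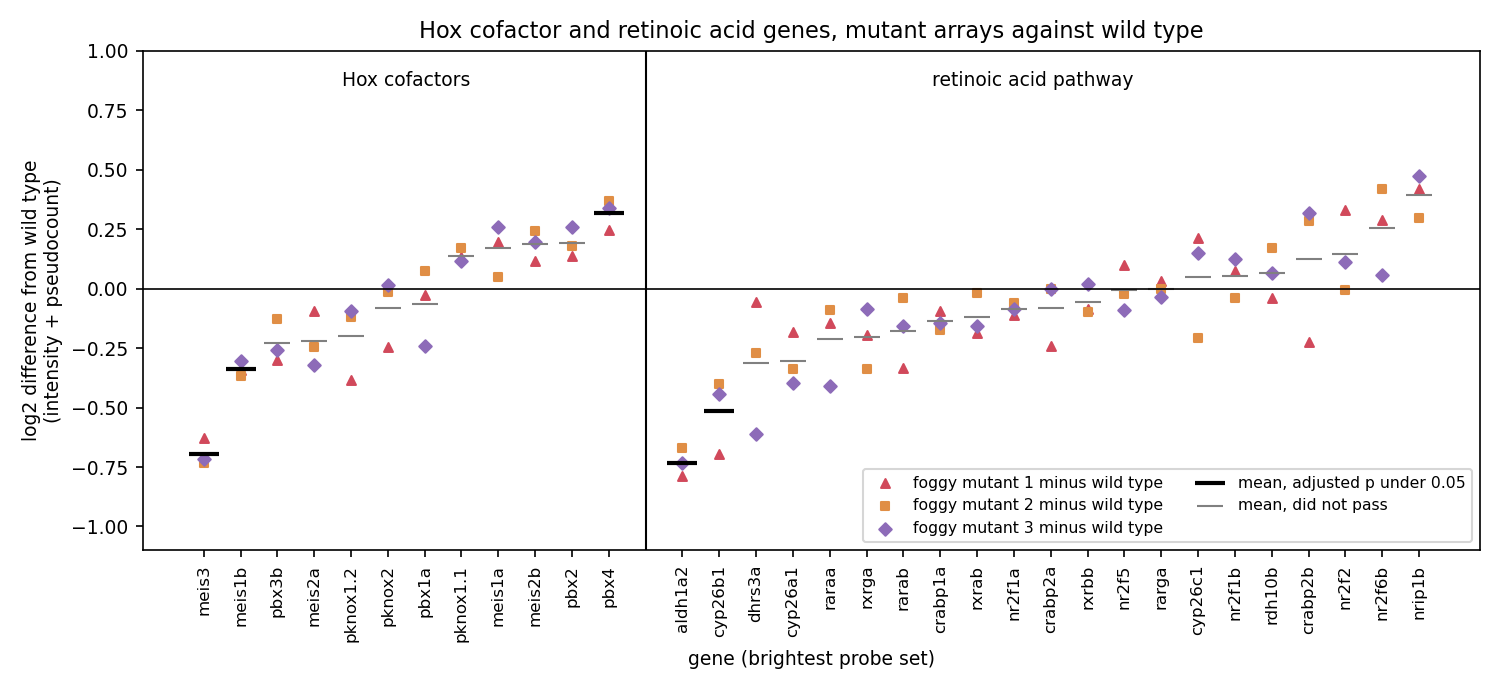
Log2 difference from the wild-type array in each of the 3 foggy mutant arrays (coloured symbols) and their mean (bars, thick where past the threshold). Shown are the 12 tested Hox cofactor genes and the 21 tested genes of the retinoic acid list, ordered by mean within each list. The 3 symbols of meis3 and of aldh1a2 lie together near -0.7, while most other genes scatter around 0.

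Of 12 tested regulators of hindbrain segments, 0 passed limma's test in either direction. At an unadjusted limma p under 0.05, 1 was lower and 3 were higher, against 8.89% and 11.7% of all probe sets tested. The lower gene, gbx1, gave 157 on the wild-type array against 121, 104 and 101 on the mutant arrays (log2 difference -0.47, adjusted p = 0.0650). The largest difference was that of egr2a, a relative of the rhombomere 3 and 5 gene egr2b. It had a wild-type intensity of 19.0 and mutant intensities of 44.97, 27.6 and 46.2 (log2 difference +0.65, adjusted p = 0.128). The egr2b probe set itself was dim. The signalling gene fgf8a gave 25.3 on the wild-type array against 40.1, 48.9 and 50.7 on the mutant arrays (+0.59, adjusted p = 0.0814). The wild-type values of egr2a and fgf8a alone lie under the filter, at percentiles 22.3 and 28.1. Both genes entered the test only through the mutant arrays, where they read higher. Their place among the 3 higher genes is therefore no support for a difference. Among Cdx, Evx and ParaHox genes, which act upstream of or beside the Hox genes, only evx1 and evx2 could be tested and neither passed (1 higher at an unadjusted p under 0.05). The evx1 probe set, next to the hoxaa cluster, read 53.8 in wild-type brain against 74.8, 82.0 and 92.8 in foggy brain (+0.50, adjusted p = 0.0888, and 0.00635 without mutant array 1). The evx2 probe set, for the gene beside the hoxda cluster, spanned 63.8 to 87.5 in the mutants, above a wild-type value of 60.6 (+0.19, adjusted p = 0.609). The tail bud genes cdx4 and cdx1a were dim.

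The supt5h probe set, which reads the gene mutated in foggy, gave 210 on the wild-type array against 258, 245 and 254 on the mutant arrays (log2 difference +0.25, adjusted p = 0.137), and a mutation need not change its transcript level. In bulk RNA, fewer cells of a type and less RNA per cell cannot be told apart. Beside the marker counts that follow, 3.14% of all probe sets tested were lower and 2.36% higher. At an unadjusted limma p under 0.05 these shares were 8.89% and 11.7%. Markers of the posterior mesoderm, notochord and tail bud were all under the array median in the wild type (0 of 12 above), and 0 of 2 tested passed (1 higher at an unadjusted limma p under 0.05). Their summed intensity was 183 in the wild type and 221 to 234 in the mutants, and without evx1 it was 130 against 159, 139 and 132. Apart from tbx6 and evx1 these markers were dim, so the sums cannot tell whether the samples held different amounts of trunk tissue. Of the fin markers, tbx5a was dim (7.12 in the wild type). The others, hand2, and1 and and2, read 469, 35.6 and 41.3 in the wild type, were tested and did not pass. Of hindbrain markers 0 of 3 tested passed (1 higher at an unadjusted p under 0.05), and their sum was 263 in the wild type and 274 to 325 in the mutants. Of forebrain markers 1 of 6 was higher (dlx2a) and of neuron markers 1 of 5 was lower (gap43) and 1 higher (elavl4). Of midbrain markers 0 of 6 passed (2 higher at an unadjusted p under 0.05). Skeletal muscle markers were lower at 6 of 7 genes, with a summed intensity of 4523 in the wild type and 1427 to 1552 in the mutants. Red cell markers were lower at 5 of 5 genes (sum 6222 against 1459 to 1628), and cartilage markers at 3 of 3 tested of 4 on the array (sum 2612 against 1459 to 1504). None of these muscle, red cell or cartilage markers was listed at 0. Kidney, gut and liver, and fin markers had 0 of 6 tested past the threshold, with 1 lower (prox1a) and 1 higher (pax8) at an unadjusted p under 0.05. The wild-type value of pax8 alone lies under the filter, as do those of the hindbrain marker egr2a and the midbrain marker fgf8a. These genes entered the test only through the mutant arrays, where they read higher. Counting them as higher is therefore no support for a difference.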

How the data were processed

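Per the labels, brain RNA was hybridised to 4 arrays, and the authors deposited 1 intensity per probe set and array, on a linear scale. How signals were summarised and background-corrected is not stated in the material used here. The trimmed mean (2% off each end) was 150.03 in every array, so the deposited intensity values were already scaled and were used as they stand. After such scaling a difference is measured against the bulk of transcripts on the array. All 4 columns were mapped by sample, and no values were identical between arrays. The labels do not say whether the mutant samples came from separate clutches or extractions, so p-values reflect the spread among these samples alone, possibly a technical one. Precision is limited by the small number of arrays.

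Before log2 a pseudocount of 16.252 (20th percentile of the table) was added, so fold changes of faint genes are understated. The 115 control probe sets and the 4651 probe sets with a mean log2 value under the 30th percentile were left out, which left 10851. The model was limma's (version 3.58.1, R 4.3.3; lmFit, then eBayes with a variance trend, 2 residual and 7.89 prior degrees of freedom). The procedure was tested on simulated data in which the wild-type array was made to vary like the mutant arrays. That test therefore could not check this assumption, on which every call depends. Symbols came from the platform annotation, updated by gene number with the RefSeq table of GRCz12tu, used for names and neighbours only. No Hox symbol changed. The brightest probe set stood for each gene in the lists. Alternatives covered pseudocount, filter, scaling, variance trend, wild-type spread, a rule of size, probe set choice and leaving out each mutant array. The rule of size asked that all 3 mutant arrays lie at least 2-fold from the wild type. It was applied to tested probe sets only, after the pseudocount was added.

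Values in every array are given for Hox genes past the threshold, the brightest probe set of each paralogue number and, of those tested, the 4 largest differences each way. Others were added after their values were seen. In the other lists, genes past the threshold are named, or the largest differences. The Hox members and all lists were chosen with earlier results of these data known. Probe sequences were not used here.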

Additional observations from a re-analysis of the deposited data

How the results depend on the processing

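Every fit rests on the same wild-type array. Probe sets lower and higher in the mutant numbered 341 and 256. They numbered 251 and 129 with dim probe sets included, 137 and 27 with no variance trend, 44 and 3 with the wild-type SD doubled, and 62 and 2 by the rule of size. Leaving out 1 mutant array gave 348 to 878 lower and 218 to 1186 higher. The share of calls that were lower was 57.1%, and it was 66.2% under cyclic loess. Across the fits it ran from 42.5% without mutant array 1 to 93.6% with the wild-type SD doubled, so the balance of directions was not stable. The 3 Hox calls became 1 without a filter, where more probe sets are tested, 2 without the variance trend, and 0 with the wild-type SD doubled or by the rule of size. Leaving out 1 mutant array gave 4 to 5 lower and 0 to 1 higher. These include hoxb6b, which entered each of those fits only through its wild-type value, so the rise above 3 is partly fixed by the filter. No other alternative changed the number of Hox calls. Of the Hox probe sets named with a test, hoxd3a and hoxd4a, which did not pass, changed sign. The hoxd3a difference was -0.00231 under cyclic loess and ran from -0.12 to +0.13 when mutant arrays were left out one at a time. Those of hoxd4a then ran from -0.0273 to +0.0143 at the brighter probe set and from -0.33 to +0.00996 at the other. The cause was not tested.

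The median difference of paralogues 5 to 8 stayed below 0 throughout. It was -0.53 with a pseudocount of 1 and -0.13 with one at the median of all values, -0.42 with 1 probe set per gene, -0.54 over tested probe sets and -0.44 without probe sets of A orientation, an alternative chosen after seeing the data. Leaving out 1 mutant array gave -0.39 to -0.28. For paralogues 9 to 13 these were -0.22, -0.0178 and, with 1 probe set per gene, -0.0882. For paralogues 1 to 4, leaving out 1 mutant array gave 0.00996 to 0.0754, and cyclic loess -0.00231. No value over tested probe sets exists for paralogues 9 to 13, none of which passed the filter. With the 75th percentile as the threshold in place of the median, 3 Hox probe sets lay above it in the wild type and 1 in each mutant array, and with the 30th percentile 19, 18, 15 and 16. No paired analysis was possible because the groups share only 1 replicate number.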

Other observations

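Polycomb and Trithorax proteins keep Hox genes off or on once their pattern is set. Of 23 tested genes of a Polycomb and Trithorax list, 1 was higher, 0 were lower and 22 did not pass limma's test. The 23 include cbx1a (+0.01), which encodes a heterochromatin protein and belongs to neither group. At an unadjusted limma p under 0.05, 4 were higher and 0 lower, and the median log2 difference was +0.06. Over all probe sets tested, 2.36% were higher and 3.14% lower, and 11.7% and 8.89% at that unadjusted p. The higher gene, phc2b, a Polycomb group member, had a wild-type intensity of 150 and mutant intensities of 205, 218 and 200, 1.34-fold higher (adjusted p = 0.0331). That call was lost without mutant array 2 (adjusted p = 0.0778), without the filter (0.0608), under cyclic loess (0.0503), without the variance trend (0.128) and with the wild-type SD doubled (0.828). The methyltransferase gene ezh2 read 506 in wild-type brain, with the mutants at 442 to 555, on either side of the wild type. The Trithorax gene kmt2a was dim.

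Against 3.14% lower over all probe sets tested, 1 of 7 tested genes of motor neuron columns and posterior neural tissue was lower, isl1a. Its brightest probe set gave 1286 on the wild-type array against 909, 899 and 868 on the mutant arrays, 1.43-fold lower (adjusted p = 0.00107), a call not held with no variance trend (adjusted p = 0.0740) or with the wild-type SD doubled (0.115). A second isl1a probe set differed by -0.32 and did not pass. The motor neuron precursor gene olig2 read 180 in wild-type brain, with the mutants at 166 to 194.

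Genes beside the Hox clusters were taken as the 3 nearest protein-coding genes on each side in the RefSeq order, a choice made after the Hox values were seen. Of these 42 genes, 25 were on the array and 20 were tested. Among the 20, 0 passed limma's test, against 5.5% of all probe sets tested. At an unadjusted limma p under 0.05 there were 2, evx1 and nbr1a, both higher, against 8.89% lower and 11.7% higher of all probe sets tested. With so few genes these counts do not set the neighbours apart from other probe sets. Their log2 differences ran from -0.28 to +0.50, with a median of +0.04. Beside the hoxba cluster, where hoxb5a lies, cbx1a differed by +0.01, atp5mc1 by -0.06 and copz2 by -0.16. Beside the hoxbb cluster, where hoxb5b lies, nbr1a differed by +0.37 (limma adjusted p = 0.0600) and psme3 by -0.11. Tested genes beside the hoxca cluster, where hoxc4a lies, ran from -0.00280 (hnrnpa1b) to +0.19 (calcoco1a).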
